A study of Mus musculus with 6 samples.

Results

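Cytochrome P450 enzymes are heme proteins that insert oxygen into sterols, retinoids, fatty acids and foreign compounds, and mouse genes for them carry the root symbol Cyp. The members were all GENCODE protein-coding genes of mouse build GRCm38 whose symbol is Cyp, a family number, optional subfamily letters and an optional member number, which gave 95 of 21853 protein-coding genes. Of these, 19 encode enzymes of sterol, steroid, vitamin D or retinoid metabolism, 66 belong to subfamilies that lie in genomic clusters and mostly act on fatty acids and foreign compounds, and 10 belong to neither group.

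The data are a list of H3K27ac peaks, regions where histone H3 is acetylated at a lysine found at active promoters and enhancers, from mouse embryonic stem cells of the line E14Tg2A grown in the naive state with inhibitors and LIF. The study holds 6 ChIP-seq samples. In 2 of them the cells received DMSO (control), in 2 NVP-2 at 100 nM, an inhibitor of the elongation kinase CDK9, and in 2 ActD (actinomycin D, which binds DNA) at 800 nM by the labels, both for 120 min, and human HEK293T chromatin was added to all as a spike-in. The list analysed here is the authors' list for control cells, which holds 22973 peaks from both replicates together as positions only, without height. There was therefore no error between replicates and no test between conditions for any gene, depth could not be read from the list, and the treated samples were not analysed here.

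Sterol-metabolising P450 enzymes either build cholesterol or turn it into bile acids, oxysterols and steroid hormones, while the Cyp26 enzymes break down retinoic acid, a signal that drives embryonic stem cells towards differentiation. Most enzymes of the clustered families are best known from the liver, where nuclear receptors induce them after exposure to drugs and dietary compounds. Microsomal P450 enzymes take electrons from the reductase Por and mitochondrial ones from the ferredoxin Fdx1. As a check of the labelled cells, promoters of 5 of 6 embryonic stem cell markers carried a peak (all but Dppa3), against 0 of 6 hepatocyte and 0 of 4 steroidogenic gland markers. Of 4 endoderm markers, Gata4 and Gata6 carried a peak and Foxa2 and Sox17 did not.

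The promoter sequences of 5 members show the kinds of promoter that the results turn on: a CpG-rich one (Cyp51) and one short of that class (Cyp7b1) under a peak in the sterol group, one of the 3 marked promoters of the Cyp4f family, the CpG-rich but unmarked Cyp26a1, and the unmarked promoter of Cyp3a11, a clustered liver enzyme, which has the letters of the TATA box at positions -124 to -119 from the TSS. Each is the 250 bases before the transcription start site (TSS) in the RefSeq copy of the GRCm38 genome, read 5′ to 3′ on the gene's strand. Capitals mark matches on either strand to the TATA box (TATAAA), the core of the xenobiotic response element that Ahr and Arnt proteins bind (GCGTG), the sterol response element of Srebf proteins (ATCACCNCA), the NF-Y box (CCAAT) and the GC box (GGGCGG). They also mark the retinoic acid response element, searched as 2 copies of AGNTCA on 1 strand with 5 bases between them, and none of these motifs contains another. Cyp51, Cyp7b1, Cyp4f13 and Cyp3a11 are on the minus strand at chr5:4104747-4104996, chr3:18243339-18243588, chr17:32947403-32947652 and chr5:145879965-145880214, and Cyp26a1 is on the plus strand at chr19:37697548-37697797.
Cyp51: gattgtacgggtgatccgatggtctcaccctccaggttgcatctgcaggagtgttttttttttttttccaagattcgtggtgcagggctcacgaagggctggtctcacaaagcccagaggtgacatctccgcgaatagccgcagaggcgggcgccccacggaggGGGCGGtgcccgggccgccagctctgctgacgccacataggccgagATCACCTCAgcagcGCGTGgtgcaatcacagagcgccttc
Cyp7b1: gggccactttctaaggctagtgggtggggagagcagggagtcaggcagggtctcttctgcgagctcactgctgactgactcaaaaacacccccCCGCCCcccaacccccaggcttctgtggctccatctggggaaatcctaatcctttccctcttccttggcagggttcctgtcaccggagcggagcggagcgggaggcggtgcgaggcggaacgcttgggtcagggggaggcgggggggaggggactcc
Cyp4f13: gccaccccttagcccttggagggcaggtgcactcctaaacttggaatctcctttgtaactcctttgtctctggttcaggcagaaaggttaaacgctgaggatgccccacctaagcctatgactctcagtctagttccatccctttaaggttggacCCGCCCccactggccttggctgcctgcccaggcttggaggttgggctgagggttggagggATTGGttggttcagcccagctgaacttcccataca
Cyp26a1: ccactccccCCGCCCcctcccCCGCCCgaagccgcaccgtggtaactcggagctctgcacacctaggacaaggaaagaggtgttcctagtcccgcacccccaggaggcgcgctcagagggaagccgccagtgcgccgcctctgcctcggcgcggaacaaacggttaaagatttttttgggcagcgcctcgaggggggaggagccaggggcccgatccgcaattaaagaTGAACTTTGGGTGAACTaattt
Cyp3a11: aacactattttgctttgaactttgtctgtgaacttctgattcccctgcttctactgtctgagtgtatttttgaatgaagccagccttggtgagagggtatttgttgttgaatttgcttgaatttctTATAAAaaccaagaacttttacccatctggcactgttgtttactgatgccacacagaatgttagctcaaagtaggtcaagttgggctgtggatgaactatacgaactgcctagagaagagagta

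These 250 bases held 18 CpG dinucleotides in Cyp51, 11 in Cyp7b1, 20 in Cyp26a1, 2 in Cyp4f13 and 1 in Cyp3a11. A match is a run of letters and not a measured binding site.

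Each gene was represented by its longest isoform in genomic span, and its promoter was counted as marked where a control peak came within 1 kb of that TSS. H3K27ac marked 10 of the 95 P450 promoters, a share of 10.5% (95% Wilson interval 5.82 to 18.3%, for counting error only), against 48.8% of all protein-coding promoters. The sterol and retinoid enzymes had 5 of 19 marked, or 26.3% (11.8 to 48.8%), namely Cyp51, Cyp7b1, Cyp27a1, Cyp39a1 and Cyp11a1. The clustered families had 4 of 66 marked, or 6.06% (2.38 to 14.6%), namely Cyp2j6, Cyp4f13, Cyp4f16 and Cyp4f17. Among the remaining 10 genes Cyp20a1 alone was marked, or 10.0% (1.79 to 40.4%). The share of the sterol and retinoid group was 20.3 percentage points above that of the clustered group, with a Newcombe interval of 3.43 to 43.0 points. That interval treats each gene as 1 count, although neighbouring genes of a cluster are not independent, so it is too narrow for such dependence. With each genomic cluster counted once the difference was 11.2 points, from 5 of 17 against 2 of 11. No interval was computed for this count, so the separation of the groups was not settled by it.

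**Figure D1:**
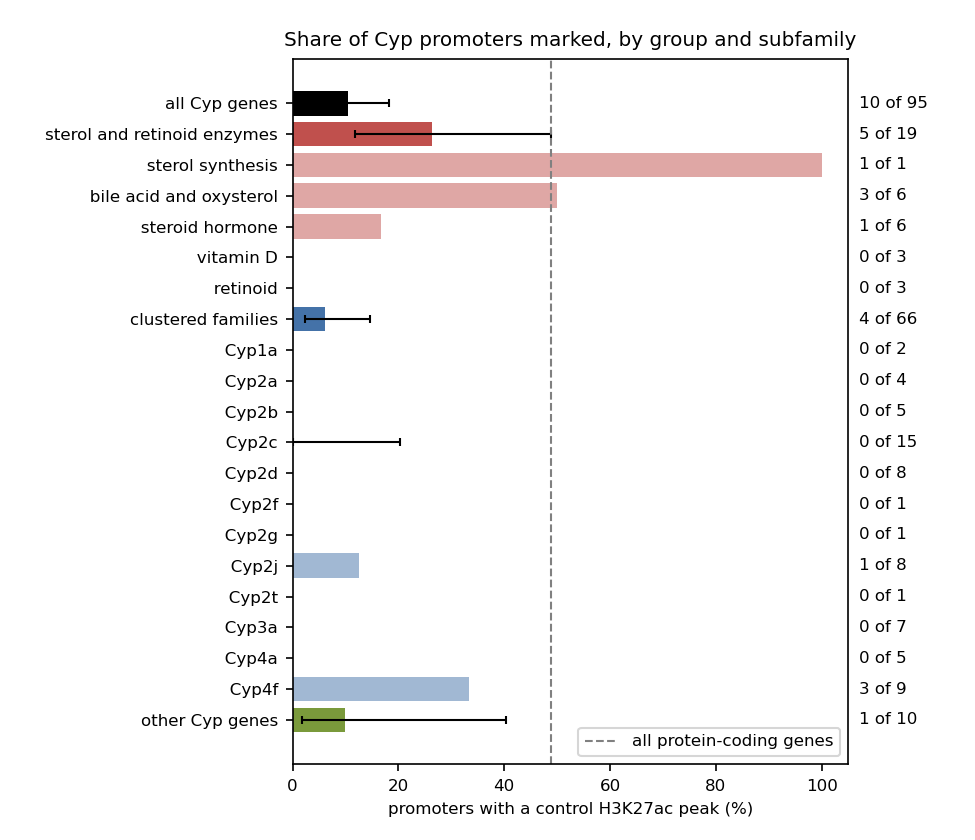
Share of promoters with a control H3K27ac peak within 1 kb of the TSS (x axis, %) for all P450 genes, the 3 groups and their subgroups, with Wilson intervals for sets of 10 or more genes and the share of all protein-coding genes as a dashed line. The bars of all P450 genes (10 of 95), the sterol and retinoid enzymes (5 of 19) and the clustered families (4 of 66) end left of the line at 48.8%, which the sterol synthesis (1 of 1) and bile acid and oxysterol (3 of 6) bars pass.

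At the TSS used for each gene, no distance was close to the limit of 1 kb. All 10 marked TSSs lay inside a peak, and the unmarked member nearest to one, Cyp4a31, was 2.42 kb away, so no P450 promoter lay between these values. Across the genome the nearest unmarked TSS was 1.00 kb from a peak.

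In the sterol branch, Cyp51 (ENSMUSG00000001467.5), the lanosterol demethylase of cholesterol synthesis, had a peak at chr5:4103578-4107934, which is 4357 bp wide and reached from 3188 bp upstream to 1168 bp downstream of the TSS. This peak was wider than that of 72.5% of all marked protein-coding genes. The promoter of Cyp51 printed above holds a sterol response element 40 to 32 bases before the TSS, a motif found in 0.741% of all protein-coding promoters (250 bases before to 50 after the TSS). The other member with this motif was Cyp2a4, where it lies 33 to 41 bases after an unmarked TSS.

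Of the 6 bile acid and oxysterol enzymes 3 were marked (interval 18.8 to 81.2%), a share near the 48.8% of all protein-coding promoters. Cyp7b1 (ENSMUSG00000039519.6), which hydroxylates oxysterols, had a 3233 bp peak at chr3:18242682-18245914 that reached 2576 bp upstream and 656 bp downstream. Cyp27a1 (ENSMUSG00000026170.6), the mitochondrial sterol side-chain hydroxylase, had a 1793 bp peak at chr1:74712654-74714446 that extended 920 bp upstream and 872 bp downstream. Both of these act in the alternative pathway of bile acid synthesis, and Cyp27a1 in the classical one too. Cyp39a1 (ENSMUSG00000023963.10), another oxysterol hydroxylase, had a 1404 bp peak at chr17:43666632-43668035 that also covered the promoter of Slc25a27, so that the contributions of both genes to this peak cannot be told apart. Its introns held 2 further peaks, 43.0 to 46.1 kb and 49.2 to 54.5 kb downstream of the TSS.

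The unmarked bile acid enzymes were Cyp7a1, the rate-limiting enzyme of the classical pathway, whose nearest peak lay 90.0 kb away over the promoter of Sdcbp, Cyp8b1, which is needed for cholic acid, at 20.2 kb, and Cyp46a1, the cholesterol hydroxylase of neurons, at 12.7 kb in the gene Hhipl1.

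Among the 6 steroid hormone enzymes, Cyp11a1 (ENSMUSG00000032323.13), which cleaves the cholesterol side chain and starts steroid synthesis, was counted as marked. Its peak at chr9:57997509-58012565 was 15057 bp wide, wider than that of 94.0% of marked protein-coding genes, and ran from 8902 bp upstream to 6154 bp downstream. The call rests on the choice of isoform. The isoform with the longest span has a spliced length of 539 bp, whereas the longest spliced isoform (2120 bp) starts 8.26 kb further downstream, 2.11 kb beyond the end of the peak, and was not marked. The remaining start, 10.98 kb downstream, was not marked either. The peak therefore lies upstream of the start of the longest Cyp11a1 transcript rather than over it.

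The other steroid hormone enzymes lay 15.5 to 31.7 kb from a peak. Cyp17a1, which makes precursors of androgens, was 15.5 kb away from a peak in Wbp1l. Cyp11b2 (aldosterone synthase) and Cyp11b1, which completes glucocorticoid synthesis, had the same peak as their nearest one, at 16.8 and 31.5 kb. Cyp19a1, the aromatase that makes oestrogens, was 19.4 kb from a 4422 bp peak. Cyp21a1, a steroid hydroxylase of the adrenal, was 31.7 kb from a peak over the promoters of Dxo and Stk19.

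None of the 3 vitamin D enzymes was marked, with an interval of 0 to 56.15% that includes the 48.8% of all protein-coding promoters. Cyp27b1, which activates vitamin D, was the nearest, 5.47 kb downstream of a peak over the promoters of Eef1akmt3 and Mettl1. Cyp24a1, which inactivates it, was 13.9 kb from a peak in Pfdn4, and Cyp2r1, the hydroxylase of the first activation step, was 177 kb from any peak.

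None of the 3 retinoic acid hydroxylases was marked, with an interval of 0 to 56.15% that includes the 48.8% of all protein-coding promoters. By median distance (82.1 kb) they were the subgroup of the sterol and retinoid enzymes that lay farthest from peaks. Cyp26c1 and Cyp26a1, which lie side by side on chromosome 19, had a peak in the gene Exoc6 as their nearest, at 69.9 and 82.1 kb. Cyp26b1 was 289.5 kb from a peak, farther than any other sterol or retinoid enzyme. The Cyp26a1 promoter shown above holds a retinoic acid response element repeat 22 to 6 bases before the TSS on the opposite strand. This repeat was present in 26 of 21853 protein-coding promoters, or 0.119%. In the P450 genes it occurred once more, in the unmarked Cyp2c50. Other genes of retinoid metabolism were marked in 5 of 12 cases (Crabp1, Dhrs3, Rbp4, Rdh10 and Rdh11), or 41.7%, near the 48.8% of all protein-coding promoters. The retinaldehyde dehydrogenases Aldh1a1, Aldh1a2 and Aldh1a3, which make retinoic acid, were unmarked. The retinoid receptors Rara, Rarg, Rxra and Rxrb carried a peak, and Rarb and Rxrg did not.

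**Figure D2:**
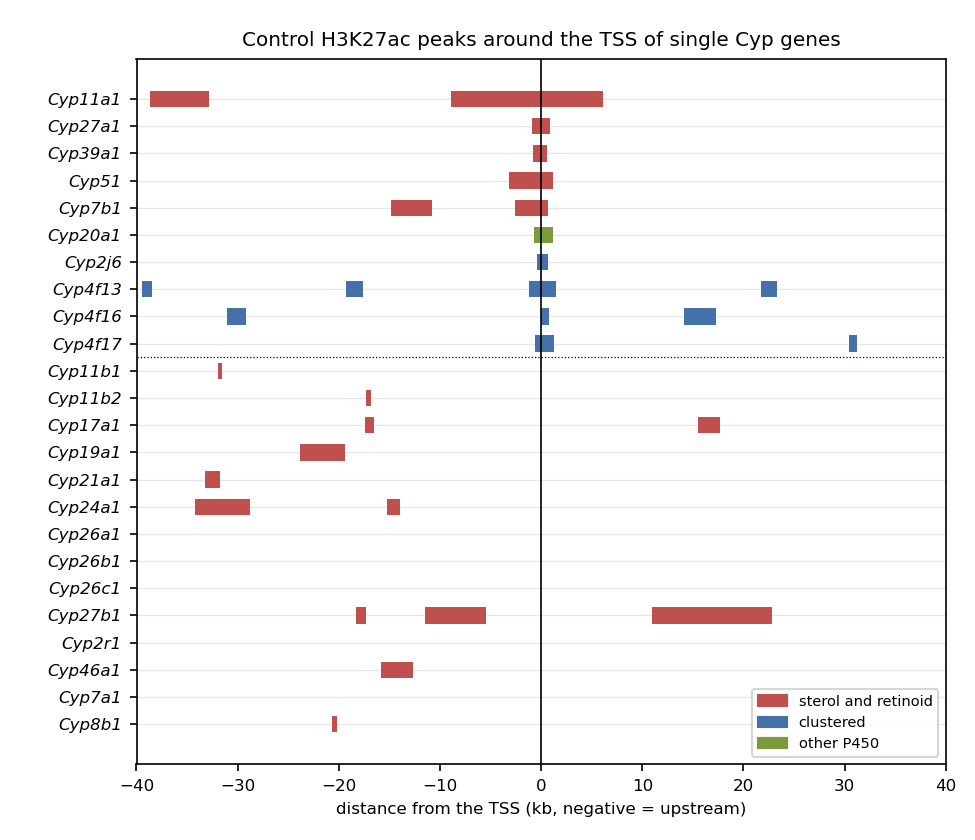
Control H3K27ac peaks within 40 kb of the TSS (x axis, kb, negative values upstream on the gene's strand) for the 10 marked members above the dotted line and the 14 unmarked sterol and retinoid enzymes below it, coloured by group. Every marked TSS lies inside a bar, the bar of Cyp11a1 being 15057 bp wide, while Cyp26a1, Cyp26b1, Cyp26c1, Cyp2r1 and Cyp7a1 have no bar at all.

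In the clustered families, marks were found in Cyp2j and Cyp4f. Cyp4f17 (ENSMUSG00000091586.2), Cyp4f16 (ENSMUSG00000048440.16) and Cyp4f13 (ENSMUSG00000024055.15) belong to a subfamily that hydroxylates leukotrienes and other fatty acids. Their peaks were at chr17:32505479-32507344 (1866 bp), chr17:32536521-32537316 (796 bp) and chr17:32945899-32948596 (2698 bp). The peak of Cyp4f16 was the narrowest at any P450 promoter and reached 37 bp upstream of the TSS. A second peak lay across the far end of the gene in Cyp4f16 and in Cyp4f13, 14.1 to 17.3 kb and 21.8 to 23.3 kb downstream of the TSS, and ran past it in both. Cyp2j6 (ENSMUSG00000052914.4), of a subfamily that makes epoxides from arachidonic acid, had a 1063 bp peak at chr4:96552982-96554044. The median peak width was 1885 bp over the 10 marked members (796 to 15057 bp) and 2174 bp at all marked protein-coding promoters (quartiles 1558 and 4832.5 bp).

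The other clustered subfamilies, Cyp1a, Cyp2a, Cyp2b, Cyp2c, Cyp2d, Cyp2f, Cyp2g, Cyp2t, Cyp3a and Cyp4a, hold 49 genes. None of these was marked, by construction, since the set leaves out Cyp2j and Cyp4f, where the marks were. With any isoform start counted, 1 of the 49 was marked (Cyp1a1), against 51.0% of all protein-coding genes. Cyp2c, the subfamily with the most members, had 0 of 15, which allows up to 20.0%. Among unmarked clustered genes, the nearest to a peak were Cyp4a31 at 2.42 kb upstream, Cyp4a10, with a peak inside the gene 2.60 kb downstream of the TSS, and Cyp2c40 at 2.94 kb upstream. The farthest were Cyp2c29 at 292 kb, Cyp2c38 at 282 kb and Cyp2j7 at 254 kb.

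The clusters themselves differed in how many peaks they held. The Cyp4f cluster on chromosome 17 spans 495 kb from the first to the last TSS and held 12 peaks, or 24.3 per Mb, against 8.43 per Mb over all chromosomes with peaks. Its 8 P450 genes are interspersed with 4 other protein-coding genes, the zinc finger genes Zfp871, Zfp811, Zfp799 and Zfp870, all of them marked. The Cyp2j cluster on chromosome 4 spans 587 kb and held a single peak, that of Cyp2j6. The other 7 Cyp2j genes therefore lay 37.5 to 254 kb from any peak.

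The Cyp3a cluster (734 kb, 6 genes) and the Cyp2d cluster (414 kb, 8 genes) also held 1 peak each, or 1.36 and 2.42 per Mb. The Cyp2c cluster on chromosome 19 spans 1180 kb with 14 members and held 6 peaks, none of them at a promoter, and a stretch of 768 kb without a peak contained 8 of its genes. In the joint cluster of Cyp2a, Cyp2b, Cyp2f, Cyp2g and Cyp2t on chromosome 7 (1256 kb), there were 7 peaks, 1 of them inside Cyp2b23, among 12 P450 genes, and of the 5 other protein-coding genes there Nlrp4a was marked. The Cyp4a cluster held 2 peaks for 5 genes, the same peaks that came within 3 kb of Cyp4a10 and Cyp4a31.

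**Figure D3:**
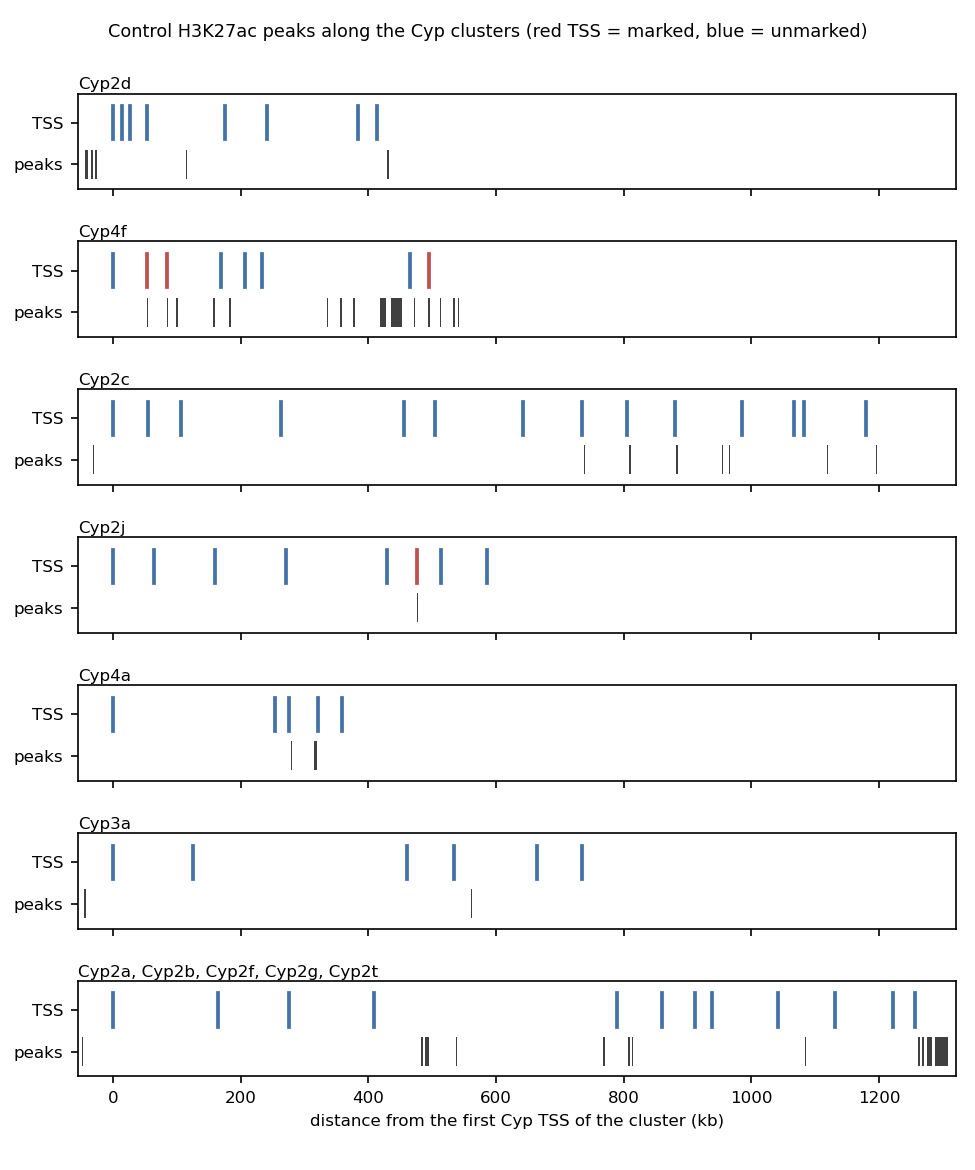
TSSs of P450 genes (upper ticks, red where marked and blue where not) and control H3K27ac peaks (lower blocks, narrow peaks widened to 2 kb) along the 7 clusters of more than 2 genes, with distance from the first P450 TSS in kb on the x axis. The Cyp4f cluster holds 12 peaks and 3 red ticks, whereas the Cyp2j, Cyp3a and Cyp2d clusters hold 1 peak each.

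Cyp20a1 (ENSMUSG00000049439.13), an orphan P450 without an established substrate, was the marked gene outside both groups, with a 1904 bp peak at chr1:60342639-60344542. The 9 unmarked genes of this group lay between 6.85 and 133 kb from a peak. Cyp2w1 was 6.85 kb from a peak in the neighbouring Cox19, and Cyp2ab1 was 8.20 kb from a peak inside its own gene. Cyp2u1, a fatty acid hydroxylase, was 17.2 kb from a peak in Sgms2. Cyp1b1, which like Cyp1a1 is induced by aromatic hydrocarbons, and Cyp2s1 were 31.1 and 31.3 kb from a peak. The ethanol-inducible Cyp2e1 was at 56.8 kb, Cyp4b1 at 86.5 kb, Cyp4v3 at 96.5 kb and Cyp4x1 at 133 kb.

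Median distances ordered the groups in the same way as the calls, but they come from the same peaks, with marked genes at 0. The median distance from the TSS to the nearest peak was 16.8 kb (0 to 289.5 kb) for the 19 sterol and retinoid enzymes, 31.2 kb (0 to 133 kb) for the 10 remaining genes and 44.7 kb (0 to 292 kb) for the 66 clustered genes, and the ranges overlapped. Intervals of these medians overlapped too (0 to 69.9, 6.85 to 96.5 and 35.8 to 52.8 kb), so their order is not resolved. Over all protein-coding genes the median was 2.16 kb. Among unmarked genes only, the median of the P450 genes was 44.4 kb and that of all protein-coding genes 60.3 kb, so unmarked P450 genes were not farther from peaks by this measure. A peak lay within 10 kb of the TSS for 23 of 95 P450 genes, or 24.2%, against 56.5% of all protein-coding genes, and anywhere in the gene for 16 of 95, or 16.8%, against 55.3%. More than 100 kb from a peak were 20 of 95 members (21.1%) and 19.6% of all protein-coding genes.

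**Figure D4:**
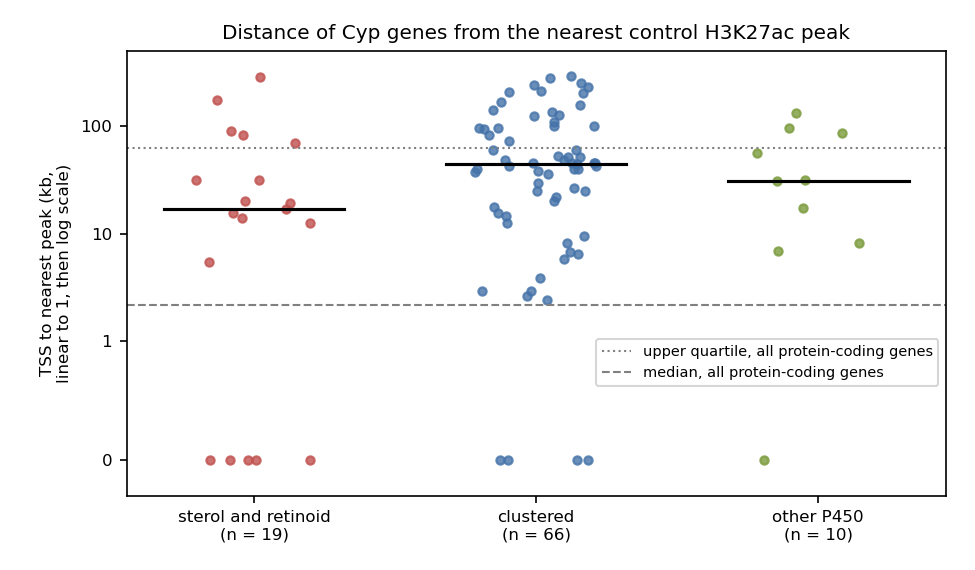
Distance in kb from each P450 TSS to the nearest control H3K27ac peak (y axis, linear up to 1 and logarithmic above), 1 point per gene with the group median as a bar, and the median (dashed) and upper quartile (dotted) of all protein-coding genes. The 10 marked genes sit at 0, no gene lies between 0 and 2.42 kb, and the group medians of 16.8, 44.7 and 31.2 kb all lie above the dashed line at 2.16 kb.

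Counting a gene as marked when any annotated isoform start was within 1 kb of a peak gave 12 of 95 members, or 12.6%, against 51.0% of all protein-coding genes. The added genes were Cyp1a1 and Cyp2ab1. Cyp1a1, which oxidises aromatic hydrocarbons and is induced through Ahr, has a second start 9.69 kb downstream of the first, 0.277 kb from a 1152 bp peak at chr9:57696185-57697336. Its longest spliced isoform (2697 bp) begins at the unmarked upstream start, and the longest from the downstream start has 2621 bp. In Cyp2ab1 the marked start lies 8.65 kb downstream and belongs to a transcript of 1497 bp.

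Base composition differed between the groups as well. A promoter was called CpG-rich where the 500 bp on each side of the TSS had a GC content of at least 50% and a ratio of observed to expected CpG of at least 0.6. By this rule 9 of 95 P450 promoters (9.47%) were CpG-rich, against 45.9% of all protein-coding promoters. They were 6 of the 19 sterol and retinoid enzymes (Cyp51, Cyp39a1, Cyp46a1, Cyp26a1, Cyp24a1 and Cyp2r1), 3 of the 10 remaining genes (Cyp20a1, Cyp2u1 and Cyp4v3) and 0 of the 66 clustered genes, which allows a share of up to 4.55%. The median CpG ratio was 0.354 in the sterol and retinoid group, 0.473 in the remaining genes and 0.122 in the clustered group, against 0.570 over all protein-coding genes.

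Since CpG-rich promoters are marked far more often than others, members were also set beside promoters of their own class. Of the 9 CpG-rich P450 promoters 3 were marked (Cyp51, Cyp39a1 and Cyp20a1), or 33.3% (12.1 to 64.6%), against 81.4% of all CpG-rich protein-coding promoters. Of the other 86, 7 were marked, or 8.14% (4.00 to 15.9%), against 21.3% of all such promoters. In this class the sterol and retinoid enzymes had 3 of 13 marked, the clustered genes 4 of 66 and the remaining genes 0 of 7. The clustered genes made up 66 of the 86 promoters of this class and none of the CpG-rich ones. Cyp46a1, with the highest CpG ratio (0.851) and GC content (69.1%) of the members, was unmarked, as was Cyp26a1 with 0.726 and 63.0%. Cyp4f16 was marked with a ratio of 0.0969. The part of base composition in the difference between the groups was not tested.

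**Figure D5:**
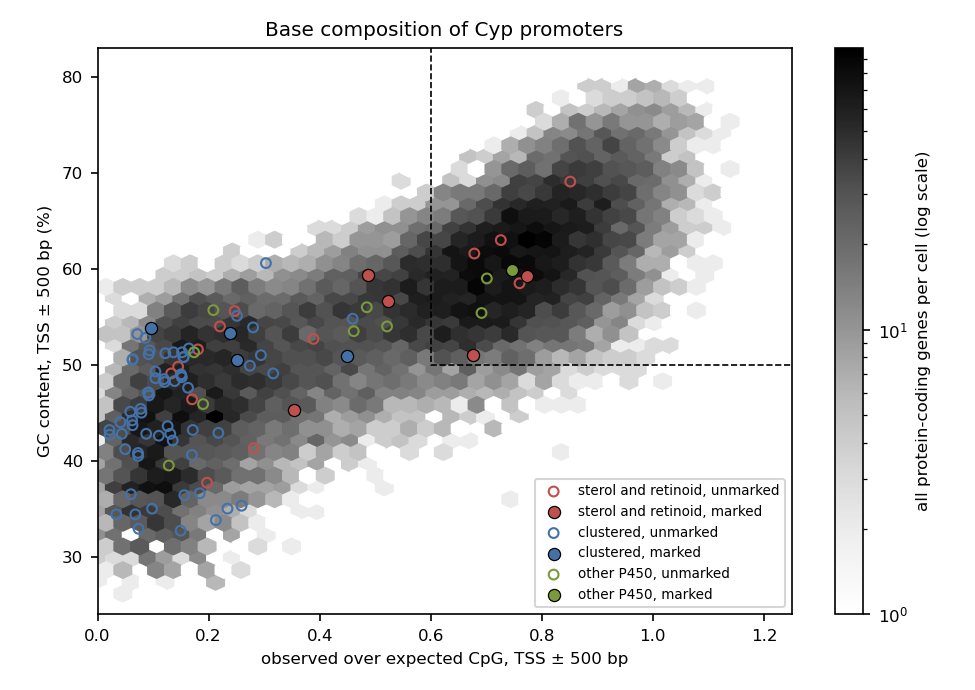
GC content (y axis, %) against the ratio of observed to expected CpG (x axis) in the 500 bp on each side of the TSS for P450 genes (filled where marked, open where not, coloured by group) over all protein-coding genes (grey cells, log scale), with the CpG-rich class inside the dashed lines. No blue point of the clustered families falls inside, and of the 9 P450 points inside 3 are filled.

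Among promoter motifs, the letters of the TATA box were present, at any position in the window, in 32 of 95 member promoters (33.7%, against 12.4% of all protein-coding promoters), with 27 of 66 in the clustered group, 5 of 19 in the sterol and retinoid group and 0 of 10 in the remaining genes. None of the 10 marked members had one, which allows a share of up to 30.0%. The GC box was present in 19 of 95 (20.0%, against 45.0%), with 7 of 66 in the clustered group, 8 of 19 in the sterol and retinoid group, and 7 of the 10 marked members. The NF-Y box was found in 51 of 95 (53.7%, against 38.7%), with 33 of 66 in the clustered group, 14 of 19 in the sterol and retinoid group, 4 of the 10 remaining genes and 7 of the 10 marked members. The core of the xenobiotic response element was found in 20 of 95 (21.1%, against 37.8%), with 8 of 66 in the clustered group, 5 of 19 in the sterol and retinoid group, 7 of the 10 remaining genes and 3 of the 10 marked members.

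The electron donors and regulators of the P450 enzymes were described by the same rule. All 6 redox partners (Por, Cyb5a, Cyb5b, Cyb5r3, Fdx1 and Fdxr) were marked, among them the reductase of microsomal and the ferredoxin of mitochondrial P450 enzymes. The share was 48.8% over all protein-coding promoters and 81.4% over the CpG-rich ones, to which Cyb5b, Cyb5r3, Fdx1 and Fdxr belong. Of 19 receptors and factors known to control P450 genes, 8 were marked, or 42.1%, near the 48.8% of all protein-coding promoters. These were Ahr, Arnt, Srebf1, Srebf2 and the 4 retinoid receptors named above. Unmarked were the xenobiotic receptors Nr1i2 and Nr1i3, the bile acid receptor Nr1h4, the vitamin D receptor Vdr, Ppara, Hnf4a, Nr5a1, the factor that switches on adrenal and gonadal steroid synthesis, and the other two retinoid receptors Rarb and Rxrg, with Nr1h3 and Nr5a2. Rarb and Nr5a2 were marked when any isoform counted, and Nr5a2 lay 1.03 kb from a peak.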

How the data were processed

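H3K27ac ChIP-seq was performed in control, NVP-2 and ActD cells with 2 replicates each. According to the methods, the authors aligned reads with bwa meme to mouse (mm10) and human genomes, removed duplicates (Picard 2.9.1) and poorly mapped reads (SAMtools 1.4), called peaks with LanceOtron, merged neighbouring peaks and filtered them by height and by distance to ATAC-seq summits. The deposited list gives positions in base pairs for control cells, with both replicates in 1 list and no score or count.

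Peaks were overlapped (at least 1 bp) with 1 kb on each side of the TSS of 21853 protein-coding genes (GENCODE M21), and sequence was read from RefSeq GRCm38.p6. Named were all sterol and retinoid enzymes, all marked members, the 3 nearest and 3 farthest unmarked clustered genes and all remaining P450 genes. Cyp1a1, Cyp2c50, Cyp2a4, the Cyp2c copies and single partner genes were named after their values were seen. The members and lists were chosen with earlier results of these data known. Wilson intervals at 95% and limits for a count of 0 (3 counts) cover counting error only. Scripts (Python 3.11.15, numpy 2.4.6, pandas 2.3.3, scipy 1.17.1, matplotlib 3.10.9) were tested on simulated data. Alternatives were other windows, isoforms, peak widths and overlaps, and 1 count per cluster. One list of partner genes is not reported here.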

Additional observations from a re-analysis of the deposited data

How the results depend on the processing

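The difference between the sterol and retinoid group and the clustered families kept its direction under all 11 alternatives (11.2 to 24.7 percentage points). These alternatives recounted mostly the same marked genes in 1 list, so the shared direction is not independent evidence. No interval was computed for any of them. By construction, shares moved with 1 count per genomic cluster, to 23.5% (8 of 34) for all P450 genes and to 18.2% (2 of 11) for the clustered families, and without Cyp4a and Cyp4f the latter fell to 1.92% (1 of 52). The calls of 4 genes changed: Cyp11a1 was unmarked with the longest spliced isoform, Cyp4f16 with peaks of at least 1 kb, and Cyp1a1 and Cyp2ab1 were marked with all isoforms. No paired analysis was possible because both control replicates were pooled in 1 list. For the same reason no replicate could be left out, and without scores no stricter threshold could be applied. Whether an unmarked promoter lacked signal or missed a threshold cannot be read from the list.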

Other observations

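The peaks upstream of Cyp2c40 and Cyp2c69 were compared with the sequence upstream of all Cyp2c genes after the peaks had been seen. The 2614 bp under the peak that begins 2946 bp upstream of Cyp2c69 aligned within 10 kb upstream of Cyp2c67 with 87.5% identity (1 minus the edit distance over the length), of Cyp2c68 with 79.5% and of Cyp2c40 with 70.4%. Upstream of the other Cyp2c genes identity was 49.6 to 51.0%. Peaks were listed at the copies of Cyp2c68, Cyp2c40 and Cyp2c69 and not at the copy of Cyp2c67, and that of Cyp2c68 was 165 bp wide, against 2150 bp at Cyp2c40 and 2614 bp at Cyp2c69. The 2150 bp under the Cyp2c40 peak aligned with 76.5% identity upstream of Cyp2c69, 75.7% upstream of Cyp2c67 and 73.9% upstream of Cyp2c68, against 50.9 to 52.0% upstream of the other Cyp2c genes. In the genome file 51.3% of the bases under the Cyp2c69 peak are marked as repeats. The authors removed reads that map poorly, and how many reads were lost at each copy was not tested.

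The naming rule left out 5 protein-coding P450 genes whose symbols end in a letter. Of these none was marked, and they lay 68.3 kb (Cyp4a30b), 109 kb (Cyp4a12b), 186 kb (Cyp3a41a), 222 kb (Cyp4a12a) and 282 kb (Cyp3a41b) from the nearest peak. The P450 genes with other symbols, Tbxas1 (thromboxane synthase) and Ptgis (prostacyclin synthase), were unmarked too, though Tbxas1 was marked when any isoform counted.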
